A study of Mus musculus with 6 samples.

Results

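Genes of the mitotic machinery were followed in haematopoietic stem cells that lack Hlf and in stem cells of wild-type littermates. The set was a list of 51 named genes out of 23574 in the count tables: the G2/M cyclins and their kinase, the Aurora and Polo kinases, the spindle checkpoint, the mitotic kinesins, the kinetochore, the factors of anaphase and cytokinesis, and several proteins of the spindle and chromosome surface. RNA sequencing was done on 3 libraries of each genotype, all from C57BL/6 mice, and each from 3000 sorted cells that were negative for lineage markers, CD34 and Flt3 and positive for Sca-1 and c-Kit. The knockout group carried HLF KO, whose deleted part the labels do not describe, the control group was wild type, and neither a treatment nor an age is given. Libraries are numbered 1 to 3 within a genotype, and nothing says that each came from a separate animal. The p-values therefore reflect only how far these libraries differ among themselves, part of which may be technical. The protein Hlf is a PAR bZIP transcription factor. The question of the study, by its title, was whether Hlf keeps stem cells quiescent.

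As background, a cell enters mitosis when Cdk1, bound to cyclin A or B and freed of inhibitory phosphate by Cdc25 phosphatases, reaches full activity. Aurora and Polo kinases then build the spindle, kinesin motors separate its poles and move chromosomes, and kinetochores on the centromeres hold the microtubules. The spindle checkpoint restrains the anaphase-promoting complex, a ubiquitin ligase, until every kinetochore is attached. Most long-term stem cells of adult bone marrow rest outside the cycle, and most of these genes are transcribed mainly from late S phase to mitosis. A pair of promoter elements is known to time that: the cell cycle genes homology region (CHR, TTTGAA), bound by the Lin54 subunit of the MuvB complex, and the CCAAT box, bound by NF-Y. With p130 or p107 and E2f4, MuvB forms the DREAM repressor of resting cells, and with B-Myb and FoxM1 it activates the same genes in G2.

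The promoters of the set share letters of both elements. RefSeq promoter windows of assembly GRCm38.p6, which run from 250 bases before to 50 bases after each annotated start, were matched by symbol for 44 of the 51 genes (47 windows), with none for Ccna2, Cdc25c, Aurkb, Tpx2, Incenp, Kif20a and Spc24. TTTGAA, searched on both strands, was present in 34 of the 47 windows (72.3%), against 17.9% of all 32851 windows of the table. CCAAT, also on both strands, was present in 34 (72.3%, against 37.4% of all windows), and 29 windows held both (61.7%, against 6.95%). At least 2 CCAAT matches were present in 48.9% of the windows of the set and in 11.7% of all windows. The palindrome TTACGTAA, which PAR bZIP factors are known to bind, was in 0 of the 47 windows and in 0.119% of all, and its relative TTATGTAA in 0 and in 0.938%. The E2F sites TTTCCCGC and TTTGGCGC were together in 2 of the 47 windows (4.26%, against 1.56%). TTTGAA and CCAAT can share at most an end base. A match is a description of letters and not a bound site.

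The 150 bases before the annotated start are shown, 5′ to 3′ along the gene, for 7 members: the checkpoint kinase gene and the motor gene with the smallest p-values of the set, a pair of other genes higher in every knockout library, a gene without either motif, and the reference genes Cdk1 and Mki67. Capitals mark TTTGAA or CCAAT on either strand, and positions are of GRCm38.p6, a later build than the mm9 of the counts.
Bub1b, chr2:118598061-118598210, plus strand: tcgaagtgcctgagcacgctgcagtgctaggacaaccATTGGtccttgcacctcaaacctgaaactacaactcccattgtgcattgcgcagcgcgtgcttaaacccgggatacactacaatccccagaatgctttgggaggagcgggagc
Kif11, chr19:37376232-37376381, plus strand: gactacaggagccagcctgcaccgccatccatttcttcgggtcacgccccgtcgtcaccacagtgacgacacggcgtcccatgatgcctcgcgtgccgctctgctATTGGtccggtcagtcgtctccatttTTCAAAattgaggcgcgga
Espl1, chr15:102296143-102296292, plus strand: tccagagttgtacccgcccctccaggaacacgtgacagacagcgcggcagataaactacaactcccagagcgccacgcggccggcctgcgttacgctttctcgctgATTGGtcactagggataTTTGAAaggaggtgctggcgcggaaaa
Ckap2l, chr2:129297213-129297362, minus strand: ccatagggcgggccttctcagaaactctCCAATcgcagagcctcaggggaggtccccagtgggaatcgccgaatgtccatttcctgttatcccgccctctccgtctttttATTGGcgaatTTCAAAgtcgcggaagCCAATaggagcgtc
Kif18a, chr2:109280588-109280737, plus strand: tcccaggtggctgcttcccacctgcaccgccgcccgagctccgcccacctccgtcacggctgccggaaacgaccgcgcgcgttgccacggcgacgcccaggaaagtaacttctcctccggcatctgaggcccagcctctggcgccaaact
Cdk1, chr10:69352913-69353062, minus strand: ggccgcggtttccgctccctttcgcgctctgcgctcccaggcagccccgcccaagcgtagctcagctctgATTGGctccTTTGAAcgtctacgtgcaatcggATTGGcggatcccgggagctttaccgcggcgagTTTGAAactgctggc
Mki67, chr7:135716380-135716529, minus strand: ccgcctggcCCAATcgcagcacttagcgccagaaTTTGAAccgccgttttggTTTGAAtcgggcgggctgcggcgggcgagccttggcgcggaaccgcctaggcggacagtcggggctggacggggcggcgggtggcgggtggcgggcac
In Kif11 and Espl1 a CCAAT box stands just upstream of a CHR element near the start. Cdk1 and Mki67 carry 2 CHR elements each within these 150 bases, and Ckap2l has 3 CCAAT boxes. The window of Bub1b has its CHR match downstream of the start, outside the stretch shown, and Kif18a has 0 matches of either kind in its whole window. Among tested members with a window, the 26 with TTTGAA had a median log2 fold change of 0.52 (knockout against wild type) and the 10 without it 0.69. Every knockout library was above every wild-type one for 9 of the 26 and 4 of the 10, beside 7.52% of all tested genes. The part of these letters in the differences was not tested.

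**Figure D1:**
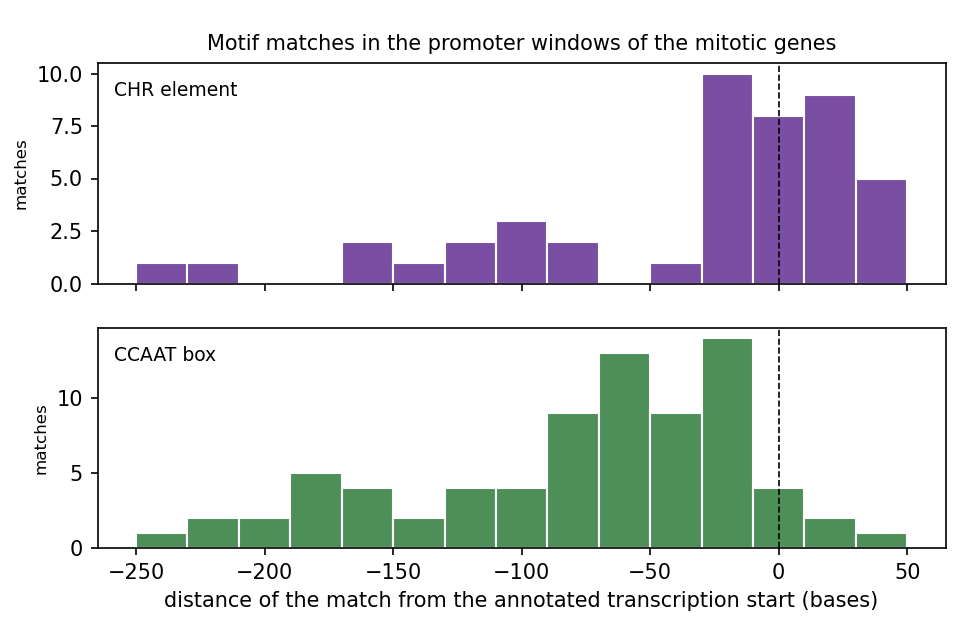
Distance of each CHR (top, 45 matches) and CCAAT (bottom, 76 matches) match from the annotated transcription start, over the 47 promoter windows of the mitotic genes; the dashed line is the start. From 100 bases before the start onward lie 36 of the 45 CHR matches (80%) and 55 of the 76 CCAAT matches (72.4%), with median distances of -15 and -59.5 bases. Bub3, Ect2 and Prc1 have 2 windows each, and their matches are counted once for each window, at different distances.

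Of the 51 genes 41 could be tested, and the 10 others all have several transcripts in the tables. The tables list read counts per RefSeq transcript, and 12 members have several listed transcripts. Each of the 39 members with 1 listed transcript had at least 1111 counts over the 6 libraries, the lowest being Cdc25c, whereas the highest of the 12 others was Birc5 with 388. The spindle assembly factor Tpx2, the checkpoint kinase Bub1, the midzone bundler Prc1 and the centralspindlin subunit Racgap1 had 0 counts in every library. Cdc25b (5 counts in all), Ttk (5), Nusap1 (6), Kif20a (12), Ect2 (30) and Spc25 (35) also failed the filter on low counts. Spc25 had 0 counts in each wild-type library and 28, 6 and 1 in the knockout libraries. These low counts go with the number of listed transcripts and are not read as absence of the genes. Birc5 and Pttg1, with 2 listed transcripts each, passed the filter, and may be counted only in part. Levels are given in CPM, the read count scaled to the library's effective size. The filter works on unscaled library totals, where its cutoff of 0.996 CPM, asked of at least 3 libraries, was reached in all 6 libraries by 38 of the 41 tested members, the exceptions being Kif2c, Birc5 and Pttg1. Of those 38, 13 had every knockout library above every wild-type one, beside 7.33% of the 8065 tested genes that reached it in all 6 libraries. An unadjusted edgeR p under 0.05 with higher knockout values was found for 8 of the 38, beside 2.84% of those genes.

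The libraries held 8346335 to 9902102 counts in wild type and 10182464 to 11998296 in the knockouts, so each knockout library was the deeper. Hlf stood at 1382 ± 274 CPM in wild type and 34.4 ± 5.30 CPM in the knockouts (SD, n = 3 each), a log2 fold change of -5.33 (SE 0.26) and an edgeR adjusted p of 1.9e-06. It was the 1 gene called of 10204 tested (0.00980%). The summed level of the stem cell markers was 762, 644 and 782 CPM in wild-type libraries 1, 2 and 3 and 537, 405 and 592 CPM in the knockout ones. Without Mecom, the largest of them, the sums were 594, 449 and 561 against 384, 309 and 511 CPM and overlapped. Markers of other cells differed between libraries too. Granulocyte and monocyte markers (9 of 10 with counts, S100a9 at 0) summed to 253, 137 and 2709.8 CPM in wild type and 82.3, 220.3 and 76.3 CPM in the knockouts, so wild-type library 3 stood apart. Without Mpo, the largest of them, the sums were 216, 91.7 and 1338 against 25.4, 83.9 and 18.6 CPM. Those sums did not overlap between genotypes. B-cell markers (10 of 10 with counts) summed to 2033, 675 and 5236 against 289, 203 and 131 CPM, and without Jchain, which took most of these counts, to 83.6, 113 and 162 against 53.5, 34.0 and 37.9 CPM. Megakaryocyte markers (7 of 8, Gp1bb at 0) summed to 557, 446 and 414 against 809, 1087 and 1023 CPM. Without Pf4, the largest of them, the sums were 372, 330 and 317 against 456, 581 and 572 CPM and did not overlap. Erythroid markers (8 of 10, with Hba-a1 and Hbb-b1 at 0) lay between 1926 and 2422 CPM against 2329 to 2957 CPM, T and NK cell markers (7 of 8, Cd8a at 0) between 105 and 220.2 against 298.5 to 495 CPM, and those of multipotent and lymphoid-primed progenitors (7 of 8, Dntt at 0) between 151 and 286 against 158 to 250.4 CPM. The T and NK cell sums rested mainly on Nkg7, without which they were 94.3, 63.9 and 7.76 against 44.5, 58.4 and 32.7 CPM and overlapped. Erythroid sums without Car2 also overlapped, at 612, 506 and 538 against 652, 736 and 608 CPM. The part of all these markers in the differences of mitotic genes was not tested. In bulk RNA, more cycling cells and more mitotic RNA per cell cannot be told apart.

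Mitotic genes stood higher in the knockout libraries as a group, while 0 single members passed the test. Summed over the 51 genes, the level was 3974, 3949 and 5137 CPM in the wild-type libraries and 5759.9, 6732 and 5881 CPM in the knockout libraries, or 4353 ± 679 against 6124 ± 530 (SD, n = 3 each). Mki67, the proliferation antigen Ki-67, made up 24.7% to 31.8% of those counts, and without it the sums were 3093 ± 366 and 4366 ± 264 CPM. The groups did not overlap on either sum. Wild-type library 3 was the highest of its genotype on both.

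By edgeR's quasi-likelihood test with Benjamini-Hochberg adjustment over all genes, 0 of the 41 tested members were called, and the smallest adjusted p was 0.466, for Bub1b and Kif11. DESeq2 called 1 of 40 members higher (Bub1b) and 0 lower, where it called 0.522% of 10927 genes higher and 1.03% lower. At an unadjusted edgeR p under 0.05 there were 9 members higher in the knockouts and 0 lower, or 22.0% and 0% of the 41, beside 2.63% and 4.65% of all tested genes. For 14 members (34.1%) every knockout library was above every wild-type library, and for 0 below, where the shares over all tested genes were 7.52% and 6.85%. Their two-sided exact permutation p was 0.1 each, the smallest that 3 libraries against 3 allow. The median log2 fold change was 0.48 over the tested members and -0.05 over all tested genes, and 35 of 41 members (85.4%) were positive, against 47.2% of all genes. Since the members were chosen with results of these libraries known, these counts are a description. Leaving out wild-type library 3 moved the 9 to 16 and the 14 to 22 (16.6% of all genes then). Leaving out knockout library 2 moved the 9 to 3. The share of all genes at an unadjusted p under 0.05 in these settings is not given here.

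**Figure D2:**
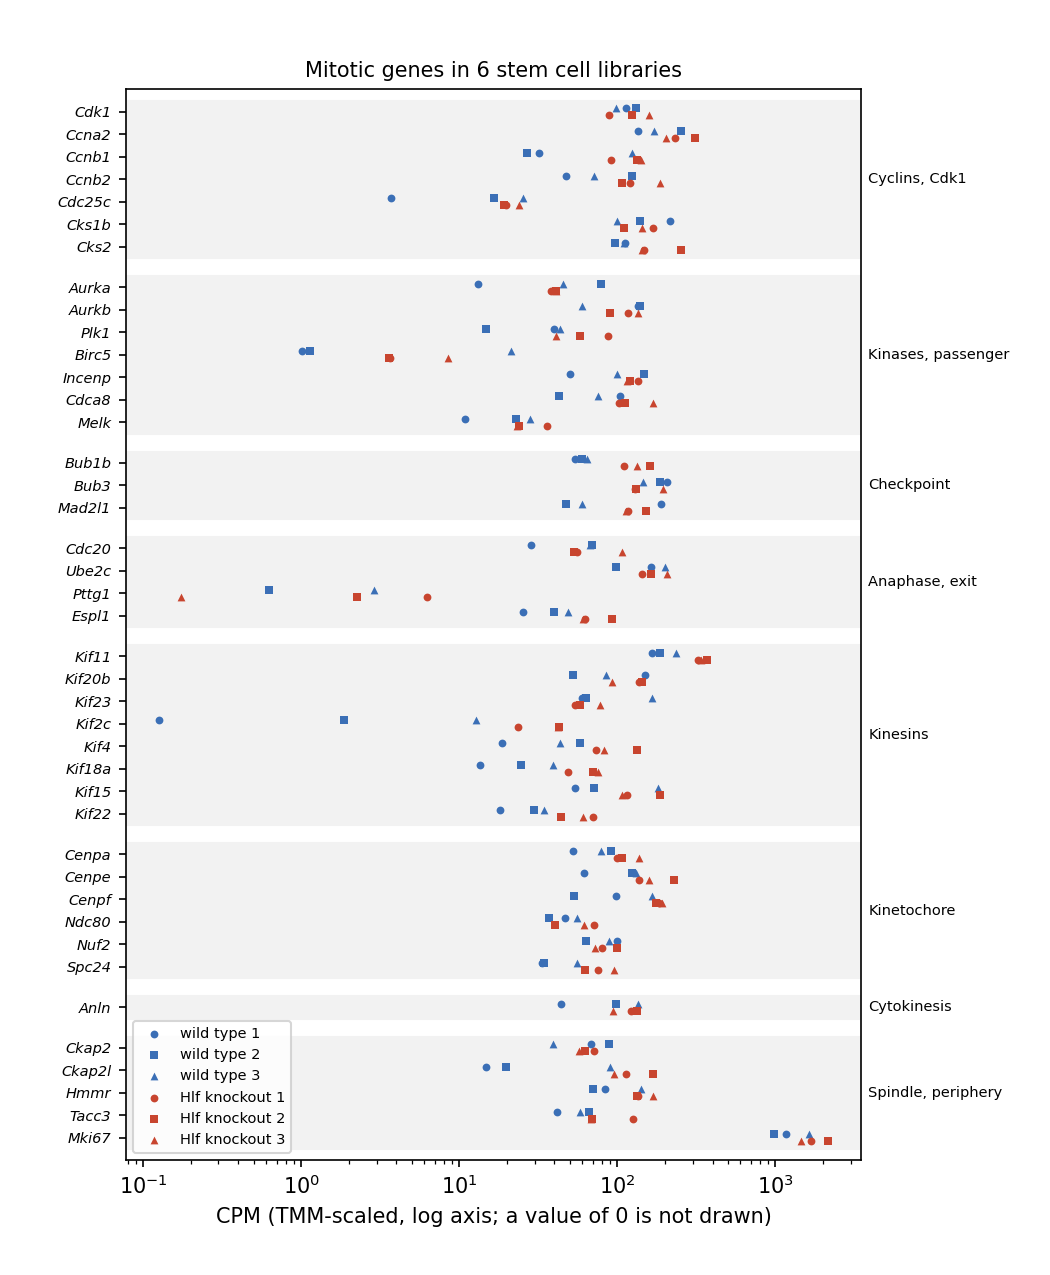
Level of the 41 tested members in each library, in CPM on a log axis, grouped by role; blue marks are wild type, red marks Hlf knockout, and the mark's shape gives the library number. Most members lie in the middle decades with Mki67 above all others, and wild-type library 1 is the lowest mark for 23 of the 41 (56.1%, against 29.5% of all tested genes).

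Among the G2/M cyclins, Cdk1 and its activators, 7 of 8 genes were tested and their median log2 fold change was 0.46. Cdk1, the kinase that drives entry into mitosis, stood at 114, 132 and 98.0 CPM in wild-type libraries 1, 2 and 3 and at 89.2, 124 and 159.6 CPM in the knockout libraries. The groups overlapped, and the log2 fold change was 0.12 (SE 0.32), with a 95% interval of -0.58 to 0.82. It was -0.10 without knockout library 3. Its partner Ccnb1 (cyclin B1) was at 31.9, 26.9 and 125 CPM against 91.3, 133 and 141 CPM. Wild-type library 3 lay inside the knockout range and the other wild-type libraries well below it, with a log2 fold change of 0.99 (SE 0.54) that became 2.05 without that library. Ccnb2 (cyclin B2) was at 47.3, 124 and 71.7 against 119, 107 and 187 CPM (log2 fold change 0.76, SE 0.40), here with wild-type library 2 inside the knockout range. Ccna2 (cyclin A2), which acts in S phase and G2, was at 134, 254 and 171 against 232, 312 and 204 CPM (log2 fold change 0.42, SE 0.30). Cdc25c, a phosphatase that activates Cdk1, had 3.69 CPM in wild-type library 1 and 16.5 to 25.3 CPM in the other libraries of both genotypes.

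The Cks proteins are small Cdk-binding subunits that help Cdk1 engage its phosphorylated substrates, and their genes differed in pattern here. Cks2 was at 113, 96.5 and 109.6 CPM in wild type and 148, 253 and 143 CPM in the knockouts, without overlap, a log2 fold change of 0.77 (SE 0.31, edgeR adjusted p = 0.637). Knockout library 2 was the highest, and without it the value was 0.47. Cks1b was at 217, 139.9 and 99.3 against 169, 109 and 143 CPM, all 3 knockout values within the wild-type range (log2 fold change -0.11, SE 0.34). The log2 ratio of Cks2 to Cks1b within a library was -0.94, -0.53 and 0.14 in wild type and -0.19, 1.20 and -0.00087 in the knockouts, which overlapped (two-sided exact permutation p = 0.3, adjusted p = 0.6 over 8 such pairs).

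Of the 8 genes of the mitotic kinases and the chromosomal passenger complex 7 were tested, with a median log2 fold change of 0.31. Groups were separated for 0 of the 7, beside 7.52% (upward) and 6.85% (downward) of all tested genes. Plk1, the Polo kinase of centrosome maturation and cytokinesis, was at 39.8, 14.8 and 43.1 CPM against 87.0, 58.3 and 40.9 CPM (log2 fold change 0.93, SE 0.53, 95% interval -0.22 to 2.09). Knockout library 3 lay between the wild-type values. Aurka, the Aurora kinase of the spindle poles, was at 13.1, 78.6 and 45.2 against 38.3, 41.1 and 40.9 CPM. Its knockout values lay close together, inside a far wider wild-type range. Its log2 fold change of -0.19 (SE 0.59) turned to 0.47 without wild-type library 2. Aurkb, the kinase of the passenger complex, was at 136, 139 and 59.8 against 117, 89.5 and 136 CPM (log2 fold change 0.033, SE 0.38, and -0.27 without wild-type library 3). Its partners Incenp, the scaffold, and Cdca8, or borealin, stood at 50, 148 and 100.2 against 135, 119.5 and 115 CPM and at 104, 42.6 and 75.5 against 103, 112 and 169 CPM. Their log2 fold changes were 0.31 (SE 0.39) and 0.79 (SE 0.39). Melk, a kinase of dividing progenitors, was at 10.9, 23.0 and 28.1 against 35.8, 23.8 and 23.1 CPM. Birc5 (survivin) had counts of 8, 11 and 193 in the wild-type libraries and 40, 38 and 98 in the knockouts.

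The spindle checkpoint held the member with the smallest p-value. Bub1b encodes BubR1, which binds Cdc20 and holds back the anaphase-promoting complex. It stood at 53.9, 60.0 and 64.6 CPM in the wild-type libraries and at 111, 160.3 and 133 CPM in the knockout libraries, 59.5 ± 5.35 against 135 ± 24.8 (SD, n = 3 each). The lowest knockout value was well above the highest wild-type one, and wild-type library 3 did not stand apart from the other wild-type libraries here. Bub1b differed 2.26-fold, a log2 fold change of 1.18 (SE 0.32) with a 95% interval of 0.47 to 1.89. The edgeR adjusted p was 0.466 and the DESeq2 adjusted p 0.0101. With 1 library left out the value lay between 1.05 and 1.31. Bub3, which carries Bub1 and BubR1 to the kinetochore, was at 206, 185 and 146 against 129, 132 and 195 CPM (log2 fold change -0.23, SE 0.28), with the groups overlapping. Mad2l1, the Mad2 protein that joins BubR1 and Cdc20 in the inhibitory complex, was at 188, 47.5 and 59.8 against 118, 152 and 113 CPM, and wild-type library 1 was its highest. Its log2 fold change was 0.37 (SE 0.48), 1.26 without that library and 0.043 without wild-type library 2. Within a library the log2 ratio of Bub1b to Bub3 was -1.93, -1.62 and -1.17 in wild type and -0.22, 0.28 and -0.55 in the knockouts, without overlap (two-sided exact permutation p = 0.1, the smallest possible, and adjusted p = 0.267 over the 8 pairs, which were chosen after the values were seen).

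Of 4 tested factors of anaphase and mitotic exit 1 (25%) had groups separated upward, beside 7.52% of all tested genes. Their median log2 fold change was 0.66. Cdc20, the activator of the anaphase-promoting complex that the checkpoint restrains, stood at 28.6, 68.7 and 66.8 CPM in wild type and 55.3, 53.4 and 108 CPM in the knockouts. Its groups overlapped, and the log2 fold change of 0.40 (SE 0.47) was -0.0028 without knockout library 3. Ube2c, the ubiquitin-conjugating enzyme of that complex, was at 164, 98.6 and 201 against 142, 162 and 207 CPM (log2 fold change 0.14, SE 0.32). Espl1 encodes separase, the protease that opens cohesin rings, and was at 25.2, 40.04 and 48.4 against 62.8, 93.0 and 60.6 CPM without overlap (log2 fold change 0.93, SE 0.44, 95% interval -0.026 to 1.88). Pttg1 (securin), the inhibitor of separase, had counts of 0, 6 and 26 in the wild-type libraries and 68, 24 and 2 in the knockouts, too few and too uneven to compare.

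Among the mitotic kinesins most tested members had separated groups. Of 9 genes 8 were tested, and the median log2 fold change was 0.95. Every knockout library was above every wild-type one for 5 (62.5%), beside 7.52% of all tested genes. The same 5 had an unadjusted edgeR p under 0.05 with higher knockout values, beside 2.63% of all tested genes. Kif2c, among the 5, reached the cutoff of the low-count filter in 2 wild-type libraries and 3 knockout libraries. Kif11 (Eg5), the motor that pushes spindle poles apart, stood at 166, 186 and 236 CPM in wild type and 326, 368 and 339 CPM in the knockouts, 196 ± 35.9 against 344 ± 21.8 (SD, n = 3 each). The knockout libraries were close to each other and all above wild-type library 3. The difference was 1.76-fold, or 0.81 on the log2 scale (SE 0.23, 95% interval 0.31 to 1.31, edgeR adjusted p = 0.466, DESeq2 adjusted p = 0.0576), and it ranged from 0.72 to 0.97 with 1 library left out. Kif4, the chromosome-arm motor that also shapes the anaphase midzone, was at 18.7, 58.0 and 43.5 against 73.6, 133 and 82.9 CPM (log2 fold change 1.27, SE 0.48). Kif18a, which dampens chromosome oscillation at the metaphase plate, was at 13.5, 24.8 and 39.4 against 48.5, 70.4 and 75.1 CPM (log2 fold change 1.32, SE 0.51). In both, wild-type library 1 was the lowest.

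A further pair of kinesins is named because of their values. Kif2c (MCAK), the depolymerase that corrects wrong attachments at centromeres, had counts of 1, 18 and 116 in the wild-type libraries and 257, 452 and 484 in the knockouts, or 0.127, 1.87 and 12.9 against 23.5, 42.6 and 41.9 CPM. Its log2 fold change of 2.86 (SE 1.14) was the largest of the set, but the wild-type libraries differed among themselves by more than that, the 95% interval was 0.35 to 5.36, and the value was 2.30 without wild-type library 1 and 5.13 without library 3. Kif22 (Kid), which pushes chromosome arms outward, was at 18.2, 29.5 and 34.6 against 69.7, 44.1 and 60.5 CPM (log2 fold change 1.08, SE 0.48). The others overlapped. Kif15, another pole-separating motor, stood at 53.8, 71.5 and 180.2 against 116, 187 and 108 CPM, and Kif20b, a motor of cytokinesis, at 149, 52.6 and 84.8 against 137, 143 and 92.1 CPM. Kif23 (MKLP1), the motor of the centralspindlin complex, was the most negative member, at 60.1, 63.6 and 166 against 54.1, 57.7 and 78.2 CPM. Wild-type library 3 was far above the rest, and the log2 fold change of -0.61 (SE 0.45) was 0.037 without it. Within a library the log2 ratio of Kif18a to Kif23 was -2.14, -1.36 and -2.07 in wild type and -0.16, 0.28 and -0.057 in the knockouts (two-sided exact permutation p = 0.1, adjusted p = 0.267). The groups did not overlap on this ratio, but the pair was chosen after the values were seen, which the adjustment over 8 pairs does not correct. Among the 8 pairs, the ratios of Ccnb1 to Ccnb2, Aurka to Aurkb, Ndc80 to Nuf2 and Cdca8 to Incenp did overlap. Each of those had a two-sided exact permutation p of 0.6 or more.

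**Figure D3:**
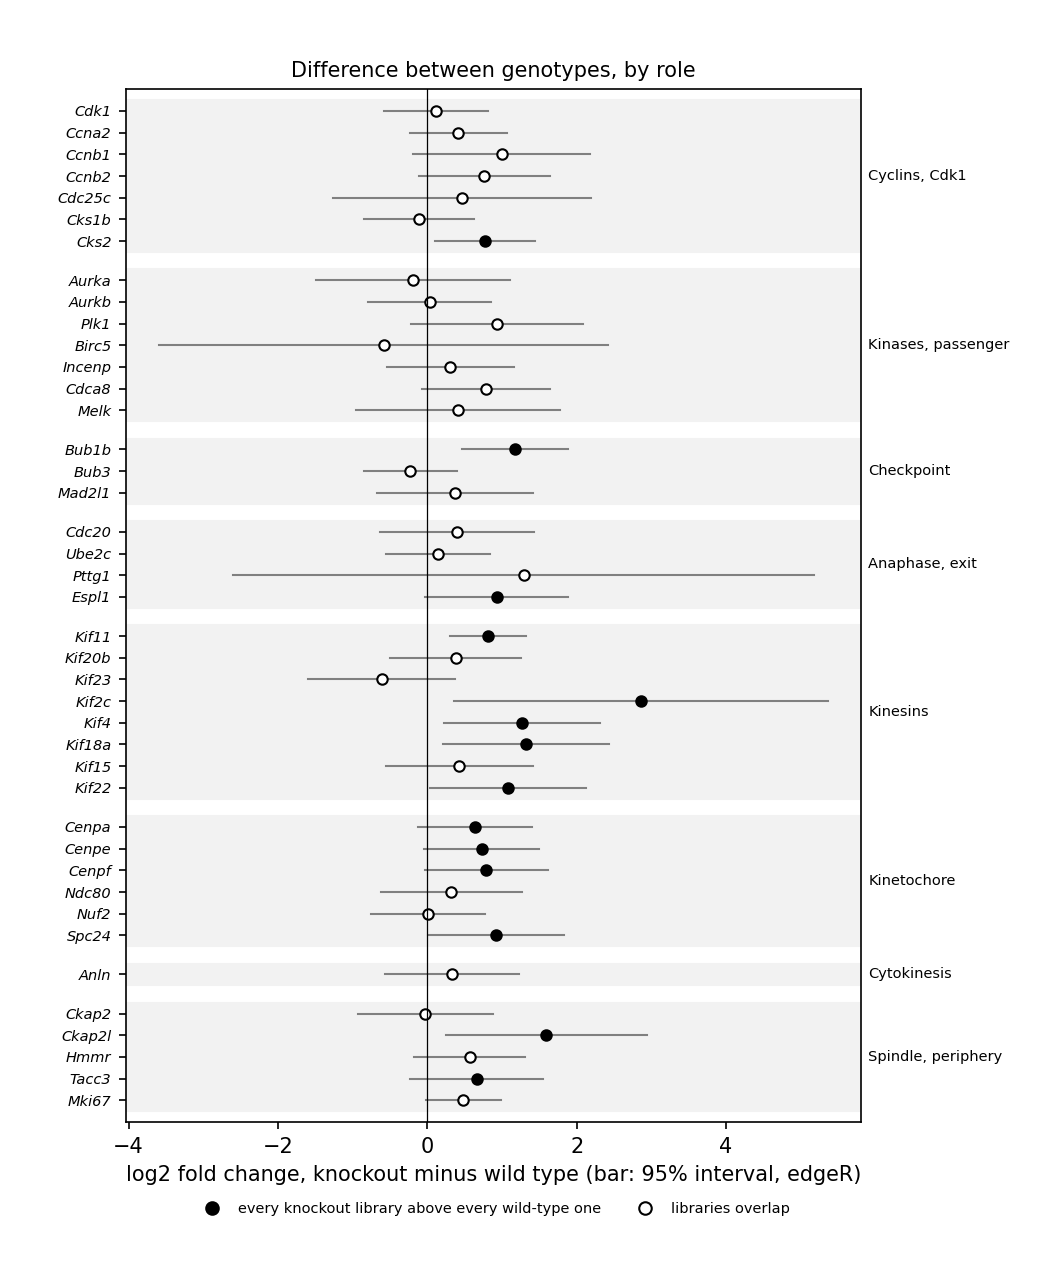
Log2 fold change of each tested member, knockout minus wild type, with its 95% interval from edgeR, grouped by role; filled points mark the 14 members whose knockout libraries all lay above all wild-type libraries. Filled points are 5 of 8 kinesins, 4 of 6 kinetochore genes and 0 of 7 genes of the kinase group, beside 34.1% of the tested members and 7.52% of all tested genes. The members were chosen with results of these libraries known.

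Kinetochore and centromere genes had positive values in 6 of 6 tested cases, beside 47.2% of all tested genes, with a median log2 fold change of 0.68. Groups were separated upward for 4 of them (66.7%), beside 7.52% of all tested genes. Cenpe, a kinesin that carries chromosomes to the spindle equator, stood at 61.5, 124 and 132 CPM against 137, 229.8 and 158 CPM (log2 fold change 0.73, SE 0.35, edgeR adjusted p = 0.688). The highest wild-type and the lowest knockout library were nearly level. Cenpf, a large protein of the outer kinetochore, was at 98.3, 53.6 and 167 against 183, 177 and 191 CPM (log2 fold change 0.79, SE 0.38), with the knockout libraries close together. Cenpa, the histone H3 variant that marks centromeres, was at 52.3, 90.7 and 78.3 against 98.9, 108 and 137 CPM (log2 fold change 0.64, SE 0.35), again with little distance between the groups. The Ndc80 complex, which grips the microtubule end, was uneven. Spc24 was at 33.3, 34.5 and 56.0 against 75.3, 62.9 and 95.6 CPM without overlap (log2 fold change 0.92, SE 0.41, edgeR adjusted p = 0.683), Ndc80 itself at 46.4, 36.8 and 55.7 against 71.7, 40.2 and 61.7 CPM (log2 fold change 0.32, SE 0.43). Nuf2 had nearly equal means, 83.9 ± 18.3 against 84.2 ± 14.5 CPM (SD, n = 3 each), a log2 fold change of 0.0044 (SE 0.35) with a 95% interval of -0.76 to 0.77. The log2 ratio of Spc24 to Nuf2 was -1.57, -0.88 and -0.67 in wild type and -0.10, -0.67 and 0.41 in the knockouts (two-sided exact permutation p = 0.1, adjusted p = 0.267), and wild-type library 3 and knockout library 2 were level to the digits given. That pair was also chosen after the values were seen, which the adjustment does not correct.

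For cytokinesis only Anln could be tested. Anln encodes anillin, which organises the contractile ring, and stood at 44.1, 98.2 and 135 CPM in wild type and 121, 134 and 93.2 CPM in the knockouts (log2 fold change 0.33, SE 0.41, and 0.0093 without wild-type library 1). Among spindle-associated and chromosome-surface genes 5 of 6 were tested. Mki67, which coats mitotic chromosomes and is the usual stain for cycling cells, took the most reads of the set, at 1172, 977 and 1632 CPM against 1683, 2138 and 1453 CPM, or 1260.5 ± 337 against 1758 ± 349 (SD, n = 3 each). Wild-type library 3 was above knockout library 3, so the groups overlapped, and the log2 fold change was 0.48 (SE 0.23, 95% interval -0.021 to 0.98, edgeR adjusted p = 0.684). Without wild-type library 3 it was 0.71. Ckap2l, a spindle-pole protein, was at 14.8, 19.9 and 90.3 against 114, 168 and 95.7 CPM. Wild-type library 3 was near the knockout level and the other wild-type libraries far below, with a log2 fold change of 1.59 (SE 0.62) that was 2.86 without library 3. Hmmr, a spindle-assembly protein, was at 83.2, 70.4 and 142 against 135, 134 and 169 CPM (log2 fold change 0.57, SE 0.34). Tacc3, which links spindle microtubules with clathrin, was at 41.3, 66.0 and 58.4 against 125, 69.1 and 68.2 CPM, barely separated (log2 fold change 0.66, SE 0.41). Ckap2, a microtubule stabiliser, was at 67.7, 88.2 and 39.1 against 71.5, 62.6 and 57.5 CPM (log2 fold change -0.025, SE 0.41).

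**Figure D4:**
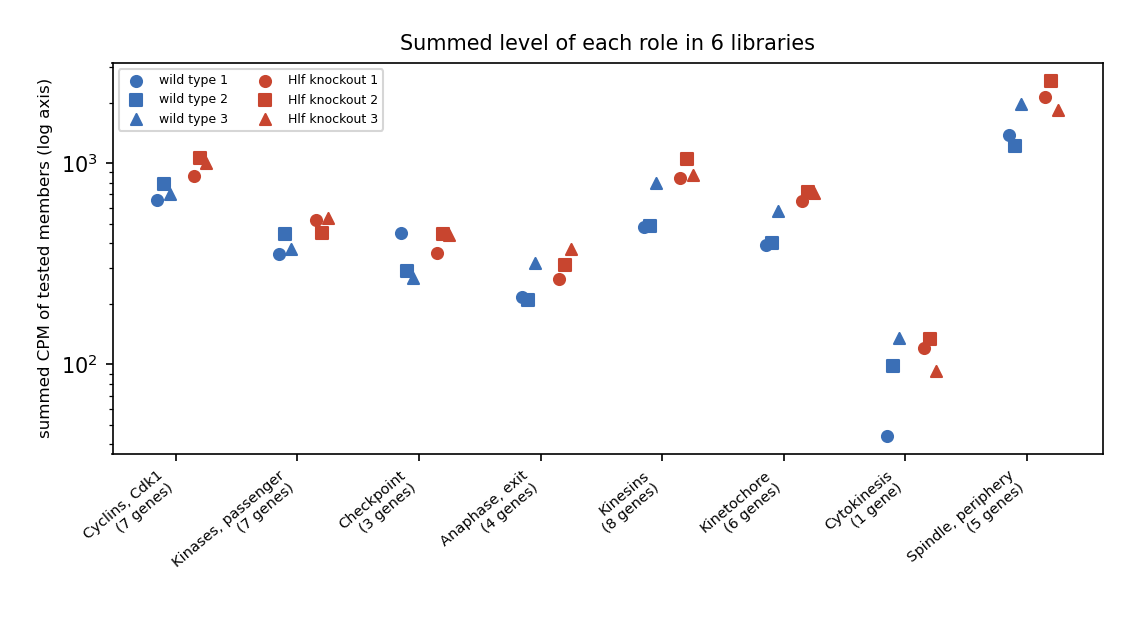
Summed CPM of the tested members of each role in each library, on a log axis; blue is wild type, red Hlf knockout, and the shape gives the library number. For the cyclin, kinase, kinesin and kinetochore groups every red mark is above every blue one, while for the checkpoint, anaphase, cytokinesis and spindle groups the colours overlap.

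Summed by role, the kinesins stood at 479, 488 and 797 CPM in wild type and 849, 1046 and 877 CPM in the knockouts. The kinetochore genes summed to 391, 403 and 578 CPM in wild type and 646, 718 and 715 CPM in the knockouts. For the cyclins, Cdk1 and its activators the sums were 660.3, 789.6 and 699.7 CPM in wild type and 868, 1057 and 1001 CPM in the knockouts. In all of these the groups did not overlap. The kinase and passenger sums, 355, 447 and 373 CPM in wild type and 519.7, 448 and 533 CPM in the knockouts, only just separated, by the margin between wild-type library 2 and knockout library 2. Checkpoint sums overlapped, at 448, 293 and 270.3 CPM in wild type and 358, 445 and 441 CPM in the knockouts.

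Within a genotype the members varied more in wild type. The median SD of log2 CPM was 0.69 over the tested members in wild type and 0.34 in the knockouts, and 34 of 41 members (82.9%) had the larger SD in wild type. Over all tested genes these medians were 0.75 and 0.46, with 70.7% more variable in wild type. Wild-type library 1 was the lowest of the 6 libraries for 23 members (56.1%, against 29.5% of all tested genes), and wild-type library 2 for 12 (29.3%, against 20.6%). Knockout libraries 2 and 3 were the lowest for 0 members, against 13.8% and 12.9% of all tested genes. They were the highest for 12 and 11 members (29.3% and 26.8%, against 14.5% and 13.7% of all tested genes). Measured as the median deviation from each member's mean over the 6 libraries, in log2 units, wild-type libraries 1, 2 and 3 stood at -0.72, -0.39 and 0.01 and the knockout libraries at 0.26, 0.27 and 0.28. Wild-type library 3 was thus the nearest of its genotype to the knockout libraries, and it was also the one with 2709.8 CPM of granulocyte and monocyte markers. Wild-type library 1 had the fewest features with a count, 10796, where the others had 11341 to 12331. The part of either in the differences was not tested. With every library thinned to 8346335 counts, 14 members had every knockout library above every wild-type one and 0 below, beside 7.40% and 6.90% of all tested genes.

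Levels of different genes can be set beside each other only per transcript length, taken from GENCODE. On the scale of mean CPM per kilobase, the most abundant tested members in wild type were Cks1b (179), Ube2c (159.8), Cks2 (154) and Mki67 (125). In knockout the order was Cks2 (262), Ube2c (177), Mki67 (175) and Cks1b (166). The separase gene Espl1 (5.69 and 10.8 CPM per kilobase in wild type and knockout), Melk (7.002 and 9.33) and Cdc25c (7.80 and 10.8) were among the lowest. The mean level of Ccnb2 per kilobase was above that of Ccnb1, 52.9 against 24.6 in wild type and 89.8 against 49.0 in the knockouts.

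Other genes of the same pathways, from lists that exclude the 51, were measured in the same fit, and 0 were called in any list. Over all tested genes 47.2% were positive, 7.52% were separated upward and 6.85% downward. An unadjusted edgeR p under 0.05 was found for 2.63% (higher) and 4.65% (lower) of them. Of 34 tested further kinetochore and centromere genes, 26 (76.5%) were positive, with a median log2 fold change of 0.48. Groups were separated upward for 7 (20.6%) and downward for 0, and 1 (2.94%) had an unadjusted p under 0.05. That 1 was Knl1, the scaffold that recruits Bub proteins (86.3, 111 and 164 against 205, 231 and 201 CPM, log2 fold change 0.82, SE 0.30). Mad2l1bp, a partner of Mad2, had the next smallest p (0.382, 8.32 and 7.09 against 25.2, 29.0 and 10.8 CPM, log2 fold change 2.04, SE 1.06). Of 25 tested further spindle, centrosome and cytokinesis genes 15 (60%) were positive, 3 (12%) were separated upward and 1 (4%) downward, and the median was 0.27. In each direction 1 (4%) had an unadjusted p under 0.05, near the shares over all tested genes. Those were Haus2, an augmin subunit (10.6, 19.8 and 38.6 against 58.6, 59.0 and 61.8 CPM, log2 fold change 1.38, SE 0.55), and the kinase gene Nek7 (170.2, 189.7 and 101 against 107, 82.5 and 66.2 CPM, log2 fold change -0.85, SE 0.34).

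Lists of regulators were measured too. Of 10 tested genes of G2/M transcription 5 were positive and 5 negative, 0 had an unadjusted p under 0.05, and the median was -0.067. Groups were separated upward for 1 (10%, Rbbp4) and downward for 1 (10%, Mybl2), beside 7.52% and 6.85% of all tested genes. The smallest p-values were those of Nfyb, an NF-Y subunit (209, 112 and 70.5 against 51.05, 80.3 and 84.8 CPM, log2 fold change -0.86, SE 0.42), and Rbbp4, a MuvB subunit (95.9, 60.4 and 135 against 150.4, 166 and 149 CPM, log2 fold change 0.68, SE 0.34). Foxm1 and Mybl2 (B-Myb), the activators that join MuvB in G2, had values of opposite sign, at 39.6, 74.4 and 82.6 against 116, 54.8 and 159 CPM, log2 fold change 0.75, SE 0.45, and 80.9, 77.3 and 60.9 against 52.7, 55.2 and 55.9 CPM, log2 fold change -0.42, SE 0.37. Rbl2 (p130) was listed at 0 and Lin54 failed the filter, and both have several listed transcripts. Among 15 tested genes of the anaphase-promoting complex and its regulators 9 were positive and 0 had an unadjusted p under 0.05, with a median of 0.17. In the list of that complex 1 gene (6.67%) was separated upward and 1 (6.67%) downward, beside 7.52% and 6.85% of all tested genes. Ube2s, its chain-extending enzyme, was lower in every knockout library (76.8, 118 and 91.2 against 60.7, 46.8 and 61.6 CPM, log2 fold change -0.76, SE 0.36), and its inhibitor Fbxo5 (Emi1) higher in every one (20.5, 20.5 and 31.1 against 36.7, 45.3 and 61.9 CPM, log2 fold change 1.00, SE 0.50). Of 11 tested brakes and other activators of Cdk1, 5 were positive and 6 negative (median -0.34). In each direction 1 (9.09%) had an unadjusted p under 0.05, beside 2.63% (higher) and 4.65% (lower) of all tested genes. Mastl (Greatwall), the kinase that shields Cdk1 substrates from phosphatase, was higher in every knockout library (7.12, 8.01 and 13.96 against 22.1, 45.7 and 26.3 CPM, log2 fold change 1.69, SE 0.68). Wee1, the kinase that inhibits Cdk1, had the negative value (118, 285 and 152 against 103, 101 and 118 CPM, log2 fold change -0.78, SE 0.35), with wild-type library 2 the highest.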

How the data were processed

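RNA was sequenced from 3 wild-type and 3 HLF KO libraries. Read counts for each RefSeq transcript, whole numbers with no scaling, are what the authors deposited. Per the submitters' processing notes, TopHat and build mm9 were used. The version, counting tool, strand use and handling of shared reads were not given in the sources used here. All 30858 transcripts were named from RefSeq (30363) or GENCODE (179) tables or kept their identifier (316), then summed to 23574 features, and 0 columns were unmatched. Kif14, a gene of one list, was not analysed here.

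The whole table was fitted with edgeR 4.0.16 in R 4.3.3 (TMM, filterByExpr with minimum count 10 and total 15, robust quasi-likelihood F test, no covariates), with Benjamini-Hochberg adjustment over 10204 genes, called under 0.05. Standard errors come from the F statistic. Log2 CPM used a prior count of 2. DESeq2 1.42.0, limma-voom 3.58.1, RLE and no scaling factors, other filters, genes with 1 transcript, thinned libraries, a replicate block and leaving out each library were alternatives. The fit was tested on simulated data. Total counts of 8346335 to 11998296 set the precision, and intervals cover 95%.

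The members and lists were chosen with earlier results of these data known. Named are 10 reference genes (Cdk1, Ccnb1, Plk1, Aurkb, Bub1b, Cdc20, Kif11, Cenpe, Prc1, Mki67), the 3 tested members of smallest p in each role, members failing the filter and the 2 genes of smallest p in each further list; other members, Foxm1 and Mybl2 were named after their values were seen.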

Additional observations from a re-analysis of the deposited data

How the results depend on the processing

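The direction of the median log2 fold change of the members (0.48) was positive in all alternatives run, and with 1 library left out it ranged from 0.46 to 0.71. With the replicate number as a block, a pairing by number that rests on the number alone (correlations of same-numbered libraries' deviations -0.01, -0.02 and 0.02), it was 0.65, 9 members had an unadjusted p under 0.05 and 2 genes were called in all. DESeq2 called 170 genes and 1 member (Bub1b, log2 fold change 1.16). Without a filter on low counts 9 of 14669 genes were called and 15 of 47 members had an unadjusted p under 0.05. The share of all genes at that p in the alternatives is not given here, so these member counts have no background beside them. The cause of these moves was not tested. With 1 library left out the genes called ranged from 1 to 3, members called stayed at 0, members at an unadjusted p under 0.05 from 3 to 16 (higher) and 0 to 0 (lower), and separated members from 15 to 22 (higher) and 0 to 2 (lower), fewer libraries making separation easier (11.4% to 16.6% of all genes higher and 9.83% to 13.4% lower in those settings). Limma-voom moved the median of all genes to 0.06 and the replicate block to 0.06, and library totals alone to 0.0040, from -0.05.

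Some members turned sign in the alternatives, and not all of them had a value near 0. Nuf2 (0.0044) was -0.015 with RLE factors, -0.013 by DESeq2, -0.0043 with the stricter filter, and -0.15 to 0.16 with 1 library left out. Aurka (-0.19) was 0.076 by limma-voom, 0.13 with the block and -0.61 to 0.47 with 1 library left out. Leave-one-out ranges also crossed 0 for Cks1b (-0.34 to 0.25), Aurkb (-0.27 to 0.23), Kif23 (-0.84 to 0.037), Cdk1 (-0.10 to 0.32) and Cdc20 (-0.0028 to 0.61). The other members recomputed in these alternatives kept their sign. With 3 libraries a group and a median standard error of 0.41 over the members, a member whose 95% interval holds 0 was not shown to differ or to be alike.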
